A study of Drosophila melanogaster with 36 samples.

Results

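The genes ct and ems were examined as posterior spiracle targets of Abd-B. The regions taken were those of the 12 lines, at MACS2 q 1e-2 and q 1e-10, that lay in the gene body or within 20 kb of it in dm6. The q is the peak caller's p-value corrected for the number of positions tested, so that q 1e-10 is the stricter list. At q 1e-2 these were 206 of 112270 regions, 181 of them at ct and 25 at ems. At q 1e-10 they were 136 of 64006 regions, 126 at ct and 10 at ems. ct (FBgn0004198, plus strand) spans chrX:7608428-7678859, and its window of 110432 bp also holds part of CHES-1-like, which encodes a forkhead-type transcription factor and lies partly in the 3′ flank. ems (FBgn0000576, plus strand) spans chr3R:13901853-13904620, and its window of 42768 bp holds no other protein-coding gene.

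The posterior spiracle is the breathing organ at the rear of the fly larva, and it forms in the eighth abdominal segment under the control of Abd-B, the most posterior Hox protein. ct encodes the homeodomain protein Cut, which acts in the spiracular chamber. ems encodes the homeodomain protein Empty spiracles, named for the mutant spiracles and also known as a head gap gene product. Hth, a TALE homeodomain protein, carries the Hox cofactor Exd into the nucleus, and Gcm is a zinc-binding transcription factor that sets the glial fate and is also used in blood cells.

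Binding was measured by anti-GFP ChIP-Seq in stable, puromycin-selected lines of Kc167, an embryonic Drosophila cell line with features of blood cells, which is not spiracle tissue. The tagged protein (eGFP) was the Hox protein, and in the lines without a Hox protein it was Hth or Gcm. Expression was driven by the copper-inducible metallothionein promoter of the pMT vector. The Abd-B+Hth line was induced with 2.5 mM CuSO4 for 24 h and the Abd-B line with 0.5 mM for 24 h. Dfd+Hth+Gcm was given 3.7 mM for 22 h, Dfd+Hth 2.66 mM for 22 h, Dfd+Gcm 3.2 mM for 24 h and Dfd 2 mM for 24 h. Ubx+Hth+Gcm and Ubx+Gcm were given 2.5 mM for 24 h, while Ubx+Hth and Ubx had 1 mM for 18 h. Hth had 1 mM for 18 h and Gcm 2.5 mM for 24 h. Cells were fixed and then sorted on GFP fluorescence. Each line had 2 biological replicates and 1 input library, 36 libraries in all, and its lists were merged over both replicates. A presence or absence below is therefore that of a merged list, with no error between replicates and no test, and the depth behind a region is unknown. Expression was not measured in these libraries, so the identity of the cells was not checked against marker genes and no region is tied to the activity of ct or ems.

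The Abd-B regions on which the description of ct turns lie in a ct intron, between the second transcript start (X, position 7609148) and the third (position 7632222). They are numbered here from the 5′ side. The 150 bases shown from each are the stretch with the most matches to the HoxB words, searched on both strands, and the matches stand in capitals. A HoxB word is TTTAT followed by G or T and then by A or G. The stretches are from the plus strand of the RefSeq copy of dm6, at chrX:7614708-7614857, chrX:7618112-7618261, chrX:7619655-7619804 and chrX:7622839-7622988, and hold 2, 1, 4 and 3 matches.
Intron region 1: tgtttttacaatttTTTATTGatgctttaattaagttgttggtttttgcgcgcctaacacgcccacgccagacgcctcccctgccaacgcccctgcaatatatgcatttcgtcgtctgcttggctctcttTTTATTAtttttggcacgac
Intron region 2: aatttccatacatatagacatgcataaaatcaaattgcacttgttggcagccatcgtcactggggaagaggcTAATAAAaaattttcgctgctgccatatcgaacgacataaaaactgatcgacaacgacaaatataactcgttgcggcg
Intron region 3: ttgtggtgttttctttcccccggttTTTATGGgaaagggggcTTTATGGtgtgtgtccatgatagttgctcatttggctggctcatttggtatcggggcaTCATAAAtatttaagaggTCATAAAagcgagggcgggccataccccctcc
Intron region 4: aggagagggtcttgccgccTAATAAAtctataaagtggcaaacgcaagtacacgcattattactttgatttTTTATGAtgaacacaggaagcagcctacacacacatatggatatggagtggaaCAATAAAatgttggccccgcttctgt

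Regions of both Abd-B lines are shown by a ct intron stretch (chrX:7667003-7667152), a stretch upstream of ems (chr3R:13900533-13900682) and a stretch downstream of ems (chr3R:13919851-13920000), with HoxB matches in capitals, each from the plus strand. The late ct intron stretch (chrX:7661407-7661556) is shown because it held an Exd-Hox word, TGATTTAT, which is in capitals at its 5′ end, beside 3 HoxB words.
ct shared intron site: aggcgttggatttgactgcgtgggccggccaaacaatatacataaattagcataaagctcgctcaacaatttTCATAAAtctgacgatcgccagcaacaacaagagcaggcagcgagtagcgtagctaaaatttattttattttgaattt
ct late intron region: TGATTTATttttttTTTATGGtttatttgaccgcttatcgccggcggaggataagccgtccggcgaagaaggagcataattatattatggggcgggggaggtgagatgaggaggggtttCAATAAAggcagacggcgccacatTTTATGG
ems upstream site: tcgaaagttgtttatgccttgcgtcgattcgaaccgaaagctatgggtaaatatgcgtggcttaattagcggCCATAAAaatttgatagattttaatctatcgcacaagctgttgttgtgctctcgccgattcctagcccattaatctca
ems downstream site: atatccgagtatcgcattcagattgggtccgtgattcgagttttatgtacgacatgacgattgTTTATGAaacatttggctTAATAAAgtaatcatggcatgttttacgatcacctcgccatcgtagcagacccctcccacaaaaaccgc

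The last stretch (chrX:7639517-7639666) comes from a ct intron site found in every line with Gcm and in none without it. Its capitals mark the only match to the Gcm words ATACGGGC, ATACGGGT, ATGCGGGC and ATGCGGGT, which lies on the minus strand, while the bases are printed from the plus strand.
ct Gcm site: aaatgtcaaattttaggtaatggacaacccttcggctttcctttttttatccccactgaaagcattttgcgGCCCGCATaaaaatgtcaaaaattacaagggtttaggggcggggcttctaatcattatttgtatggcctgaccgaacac

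Every line had regions at ct, and Abd-B had the most. At q 1e-2, 15 regions of Abd-B+Hth and 21 of Abd-B fell in the ct window. The Dfd lines had 14 regions with Hth and Gcm, 12 with Hth, 17 with Gcm and 19 for Dfd alone. The Ubx lines had 16 with Hth and Gcm, 12 with Hth, 15 with Gcm and 12 for Ubx alone, and Hth and Gcm had 14 each. At q 1e-10, Abd-B again had the highest count, 16 regions, against 11 for Abd-B+Hth and from 4 (Ubx) to 13 (Dfd+Hth+Gcm, Dfd+Hth and Hth) in the other lines. A broad region at q 1e-2 can split at q 1e-10, which is why Dfd+Hth counted 13 regions at the stricter threshold. Lines also differed in splitting at q 1e-2. In the ct body lay 17 regions of Abd-B, 8 of Dfd and 9 of Dfd+Gcm, and downstream 1, 10 and 7. The downstream regions of these lines belonged to the same site over CHES-1-like, which Abd-B held as 1 region.

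At ems the counts were low and Ubx alone had no region at either threshold. Abd-B+Hth had 2 regions and Abd-B 3, all of them also called at q 1e-10. Dfd+Hth+Gcm and Dfd+Hth had 4 regions each at q 1e-2, Dfd+Gcm 1 and Dfd 2. Ubx+Hth+Gcm had 2 regions, Ubx+Hth and Ubx+Gcm 1 each, Hth 1 and Gcm 4. At q 1e-10 the only other regions at ems were 2 of Dfd+Hth and 1 each of Dfd+Hth+Gcm, Dfd and Gcm.

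**Figure D1:**
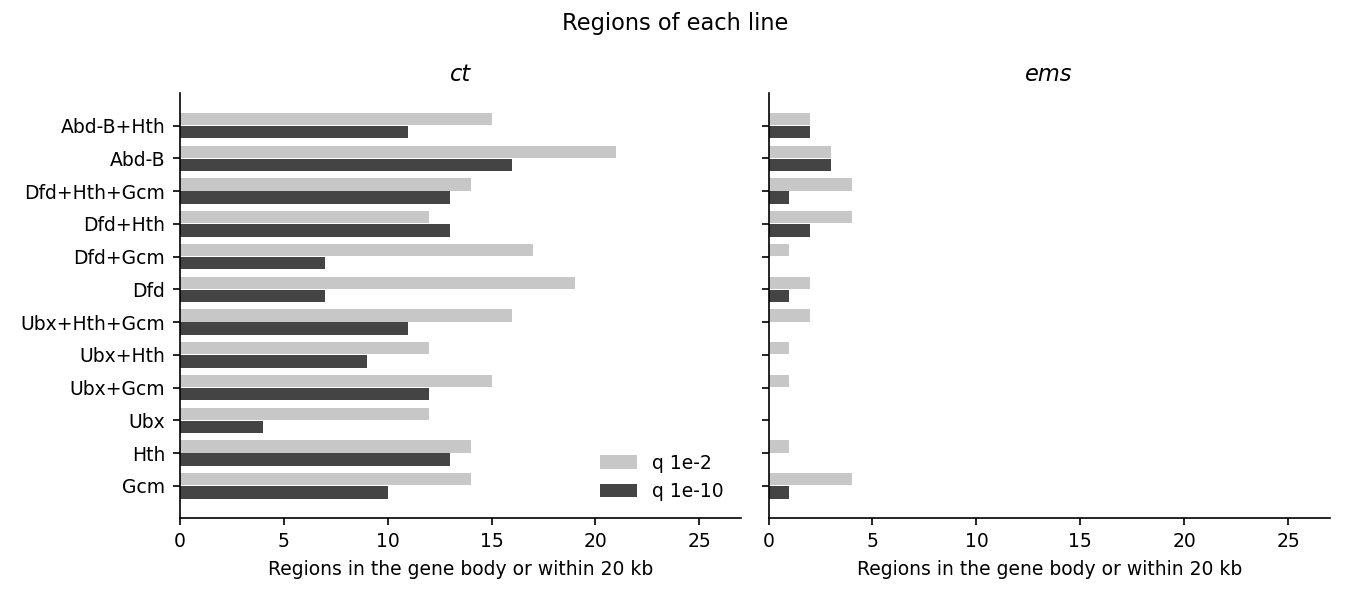
Number of regions of each of the 12 lines in the gene body or within 20 kb of ct (left) and ems (right). Pale bars show q 1e-2 and dark bars q 1e-10, and Abd-B had the most regions at ct, 21 and 16.

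A region near a gene is common in these lists, so that presence alone does not set ct or ems apart. Among the 13945 protein-coding genes, the share with a region in the same kind of window was 94.3% for Abd-B+Hth and 93.2% for Abd-B. It was 89.4% for Dfd+Hth+Gcm, 91% for Dfd+Hth, 89.7% for Dfd+Gcm and 91.1% for Dfd. The share was 87.6% for Ubx+Hth+Gcm, 71.5% for Ubx+Hth, 90.4% for Ubx+Gcm and 79.5% for Ubx, with 88.3% for Hth and 94.3% for Gcm. Per length, ct carried 1.36 regions of Abd-B+Hth per 10 kb and 1.90 of Abd-B, against 1.03 and 1.01 over the genome. Of the protein-coding genes, 57.5% had at least the density of ct for Abd-B+Hth and 33.6% for Abd-B. Relative to other genes, ct stood higher for Ubx+Hth and Ubx, at 1.09 regions per 10 kb each, a density that 12.1% and 15.6% of genes reached. Of the 12 regions of each of these lines, however, only 6 of Ubx+Hth and 4 of Ubx lay in the ct body. Downstream lay 5 and 7, nearly all of them pieces of a single site over CHES-1-like. These 2 densities thus depend in part on how that site was split into regions. ems carried 0.468 regions of Abd-B+Hth per 10 kb and 0.702 of Abd-B, densities that 87% and 78.9% of genes reached or passed. In bases, regions of Abd-B+Hth covered 18.6% of the ct window and 3.56% of the ems window, against 8.51% of the genome. For Abd-B these values were 23.7% and 4.51%, against 9.40% of the genome.

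Merging regions that shared a base gave 23 sites at ct and 12 at ems, of 23270 over the genome. At ct, 6 sites held regions of the Abd-B lines only, 4 held all 12 lines, 5 held no Abd-B line and 8 were other mixtures. At ems, 1 site held the Abd-B lines only, none held all 12 lines, 9 held no Abd-B line and 2 were other mixtures. Over the genome, 17.3% of sites held the Abd-B lines only and 6.89% held all 12. Of the sites at ems, 8 of 12 belonged to a single line, as did 7 of 23 at ct, against 35.3% of all sites. Sites with no Abd-B line made up 75% of those at ems and 21.7% of those at ct, against 37.7% of all sites.

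The 4 ct sites with all 12 lines lay at chrX:7604281-7605124, which is upstream, at chrX:7626635-7628108 in an intron, at chrX:7630926-7636592, which spans the third transcript start (position 7632222), and at chrX:7689974-7699579 over CHES-1-like. In the site that spans the third start, Abd-B+Hth had 3 regions and Abd-B 4, the widest 1699 bp with Hth and 1783 bp without. None of these contained the start position itself, which lay in regions of Dfd+Hth, Dfd+Gcm and Dfd only, at q 1e-2. The CHES-1-like site held the widest region of either line in the window, 9417 bp for Abd-B+Hth and 9511 bp for Abd-B. Regions over CHES-1-like made up 57 of the 181 in the ct window, while 104 overlapped the body of ct itself. A further intron site, chrX:7650799-7654325, held every line but Gcm, all 11 of them at q 1e-10.

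The first transcript start of ct (position 7608428) lay in a site of 793 bp with 6 lines. Abd-B+Hth had a region there at q 1e-2 only, while Abd-B, Ubx+Gcm and Hth had one at q 1e-10, and Ubx+Hth+Gcm and Ubx had one at q 1e-2 only. None of the 4 Dfd lines had a region at this start, nor did Ubx+Hth or Gcm. In the intron at chrX:7639198-7639991, by contrast, Dfd+Hth+Gcm, Dfd+Gcm, Ubx+Hth+Gcm, Ubx+Gcm and Gcm each had a region at q 1e-10 and the 7 lines without Gcm had none at q 1e-2. In the Gcm line, 4 of 14 regions at ct and 1 of 4 at ems had a Gcm word in the central 200 bp, near the 23.6% of all Gcm regions.

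**Figure D2:**
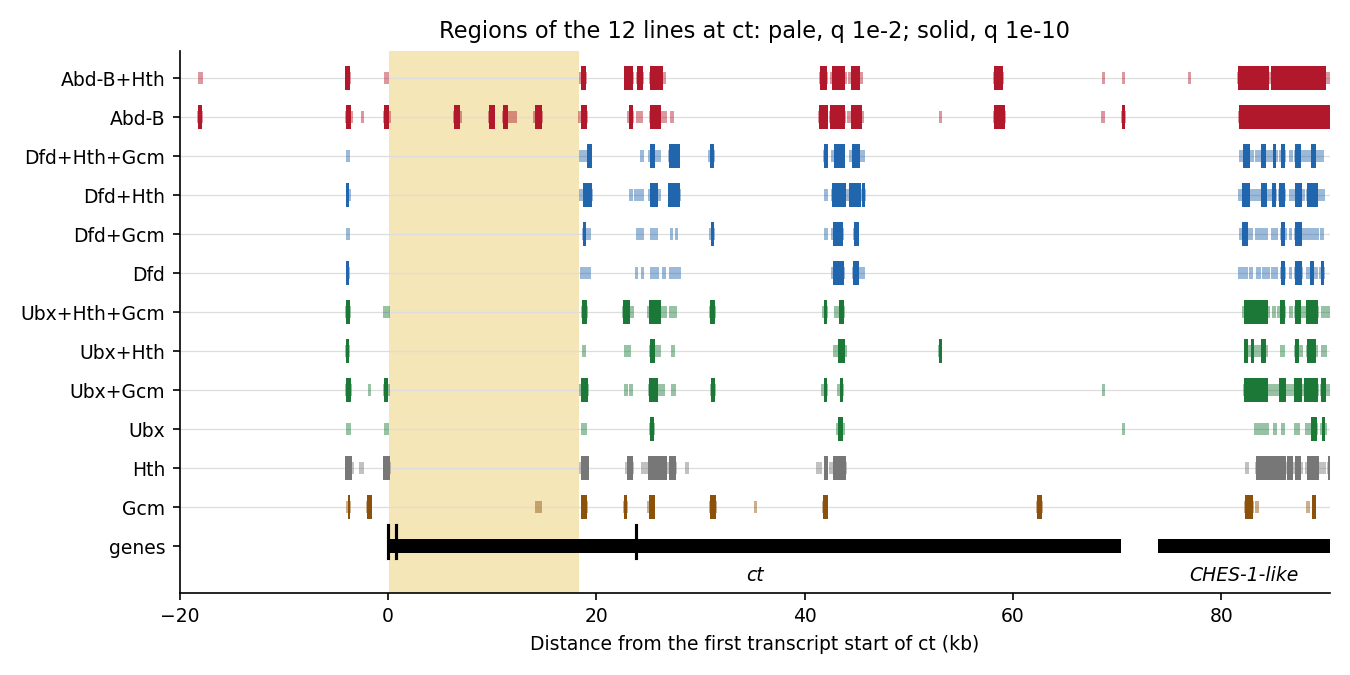
Regions of the 12 lines at ct by distance from its first transcript start in kb, with the gene bodies as black bars and transcript starts of ct as ticks. Pale bars are regions at q 1e-2 and solid bars at q 1e-10. The shaded stretch of 18.2 kb between neighbouring Abd-B+Hth regions holds 4 Abd-B regions and 1 Gcm region.

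Abd-B bound a run of ct intron regions that the Abd-B+Hth list lacked. The 4 regions lay at chrX:7614690-7615491, chrX:7618012-7618705, chrX:7619380-7620810 and chrX:7622335-7623334, with widths of 802, 694, 1431 and 1000 bp. Their centres were 6663, 9931, 11667 and 14407 bp downstream of the first start. Each was also called for Abd-B at q 1e-10, with widths of 597, 572, 487 and 669 bp. Abd-B+Hth had no region inside the 18.2 kb from chrX:7608565 to chrX:7626790, not even at q 1e-2. None of the other lines had a region inside that stretch apart from Gcm, which had 1 at q 1e-2 only, overlapping intron region 4. Intron regions 1 to 3 were thus sites of Abd-B alone, which made up 4.98% of all sites.

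In all, 7 of 21 Abd-B regions at ct and 1 of 3 at ems had no overlap with Abd-B+Hth, together 33.3%, against 17.9% of all Abd-B regions. In the other direction, 1 of 15 Abd-B+Hth regions at ct and none of 2 at ems had no overlap with Abd-B, together 5.88%, against 15% of all Abd-B+Hth regions. With the counted list at q 1e-10 and Abd-B+Hth at q 1e-2, 5 Abd-B regions remained without a partner. They were the 4 of the intron run and the region beside the ems start. Over the genome 6.96% of the q 1e-10 Abd-B regions were of this kind. Over the genome, consecutive Abd-B regions without Abd-B+Hth formed 1835 runs, of which 28 had 4 or more regions. In 2 of these 28, the ct run included, every region was also called at q 1e-10, a count made after the run had been seen. The longest run anywhere had 8 regions.

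The other 3 Abd-B regions at ct without Abd-B+Hth were called at q 1e-2 only, at chrX:7605796-7606102 upstream, chrX:7635495-7635923 in the intron near the third start, and chrX:7661299-7661624 in the late intron. The first and the second overlapped a region of Hth alone. At the late intron region, Ubx+Hth was the only other line with a region, at q 1e-10. Of the 7 regions, 2 overlapped Hth alone and 1 overlapped Gcm alone, and the 4 of the intron run were not among those with Hth. Over the genome, 27.6% of the Abd-B regions without Abd-B+Hth overlapped Hth and 16.4% overlapped Gcm. The Abd-B+Hth and Abd-B lines also differed in copper, 2.5 mM with Hth and 0.5 mM without. In addition, the paper lists more mapped reads for each Abd-B replicate than for either Abd-B+Hth replicate. Hth, induction and sequencing depth therefore cannot be told apart here. The lists were of like length, with 13741 regions for Abd-B+Hth and 13511 for Abd-B at q 1e-2, and 9418 and 10375 at q 1e-10.

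Both Abd-B lines kept a pair of ct sites to themselves. At chrX:7666497-7667773, in an intron 58707 bp from the first start, Abd-B+Hth had a region of 1060 bp and Abd-B one of 1277 bp, both also called at q 1e-10. At chrX:7590091-7590698, 18033 bp upstream, Abd-B+Hth had a region of 521 bp and Abd-B one of 608 bp, of which only that of Abd-B passed q 1e-10. The sixth site of this class, chrX:7685235-7685574 in the 3′ UTR of CHES-1-like, held Abd-B+Hth alone at q 1e-2 and was the only Abd-B+Hth region at ct without Abd-B.

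HoxB words, the kind of site that Abd-B is known to favour over more anterior Hox proteins, were denser in the ct regions that Abd-B+Hth lacked, a difference that was not tested. The 7 regions held 20 matches, 4.01 per kb, against 1.91 per kb in the 14 ct regions of Abd-B that overlapped Abd-B+Hth. The intron run held 16 of these matches in 3927 bp, with 3, 1, 9 and 3 in regions 1 to 4. The 14 regions included the broad one over CHES-1-like, which held 23 of their 42 matches and 9511 of their 21947 bp. The 7 regions were narrower, with 4989 bp in all. Over the genome the values were 2.36 per kb for Abd-B regions without Abd-B+Hth and 2.12 per kb for those with it. The higher density was not particular to HoxB. HoxA words (C or T, then TAAT, then G or T, then A, on both strands, which can overlap an Exd-Hox word) stood at 2.20 per kb in the 7 regions and 1.46 per kb in the 14, against 1.61 and 1.46 per kb over the genome. Exd-Hox words stood at 0.601 and 0.273 per kb, from 3 and 6 matches, against 0.28 and 0.321 per kb over the genome. At ems, Abd-B+Hth regions held 4.60 HoxB matches per kb and Abd-B regions 3.11 per kb, from 7 and 6 matches. The only Abd-B region at ems that Abd-B+Hth lacked, at the start, went the other way, with 0 HoxB matches in 417 bp. These are small counts of letters, and a match is not a measured site.

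In the central 200 bp, the 7 ct regions without Abd-B+Hth held 8 HoxB matches, in 4 of the 7, and the 14 with it held 4 matches, in 4 of the 14. A HoxB word lay there in 3 of 15 Abd-B+Hth regions at ct and 1 of 2 at ems, against 40.2% of all Abd-B+Hth regions. For Abd-B it lay in 8 of 21 regions at ct and 1 of 3 at ems, against 37.3%. Intron regions 3 and 4 had 2 matches each in the central 200 bp and regions 1 and 2 had none. Exd-Hox words (TGATTGAT, TGATTAAT and TGATTTAT, the last of which can overlap a HoxB word) were rarer. They lay in the central 200 bp of 1 Abd-B+Hth region at ct and none at ems, against 8.75% of all Abd-B+Hth regions, and in 2 Abd-B regions at ct and none at ems, against 6.1%. Those 2 were the region beside the third start, which both lines bound, and the late intron region.

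**Figure D3:**
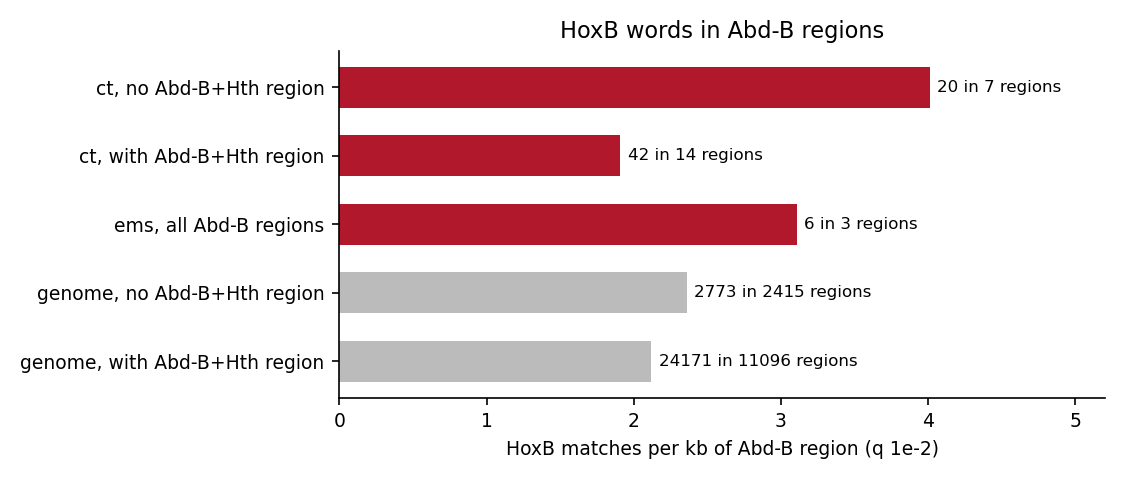
HoxB words per kb of Abd-B region at q 1e-2, for regions at ct without and with an overlapping Abd-B+Hth region, for all Abd-B regions at ems, and for the same classes over the genome. The number of matches and of regions stands beside each bar, and the ct regions without Abd-B+Hth hold 4.01 per kb. The ct regions with Abd-B+Hth include the region of 9511 bp over CHES-1-like, with 23 matches.

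Abd-B binding at ems came down to 3 places. The widest region lay downstream, at chr3R:13919601-13920591, with its centre 18243 bp from the start. Abd-B+Hth had 860 bp there and Abd-B 991 bp, both also called at q 1e-10, and no other line had a region. The upstream site at chr3R:13900366-13901032, with its centre 1154 bp from the start, held Abd-B+Hth, Abd-B and Dfd+Hth at q 1e-10 and Dfd+Hth+Gcm, Dfd and Ubx+Hth at q 1e-2 only. The start itself (position 13901853) lay in a site of 453 bp with Abd-B and Gcm at q 1e-10, and Ubx+Hth+Gcm, Ubx+Gcm and Hth at q 1e-2 only. The start position was inside the q 1e-2 regions of Abd-B, Ubx+Gcm, Hth and Gcm. At q 1e-10 it was inside that of Gcm only, as the Abd-B region ended upstream of it. Abd-B+Hth had no region at the start of ems, which was the only Abd-B region at ems that it lacked.

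The 4 Dfd lines, and no other line, shared a site further upstream of ems, chr3R:13891471-13892075, called at q 1e-10 for Dfd+Hth+Gcm, Dfd+Hth and Dfd. Dfd is a Hox protein of the head segments. The remaining 8 sites at ems belonged to a single line each and none was called at q 1e-10. The nearest sites outside the window lay 24213 bp upstream of ems, with all 12 lines, and 20218 bp downstream, with 2 lines. For ct they lay 23086 bp upstream, with 1 line, and 21108 bp downstream, with 11 lines.

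**Figure D4:**
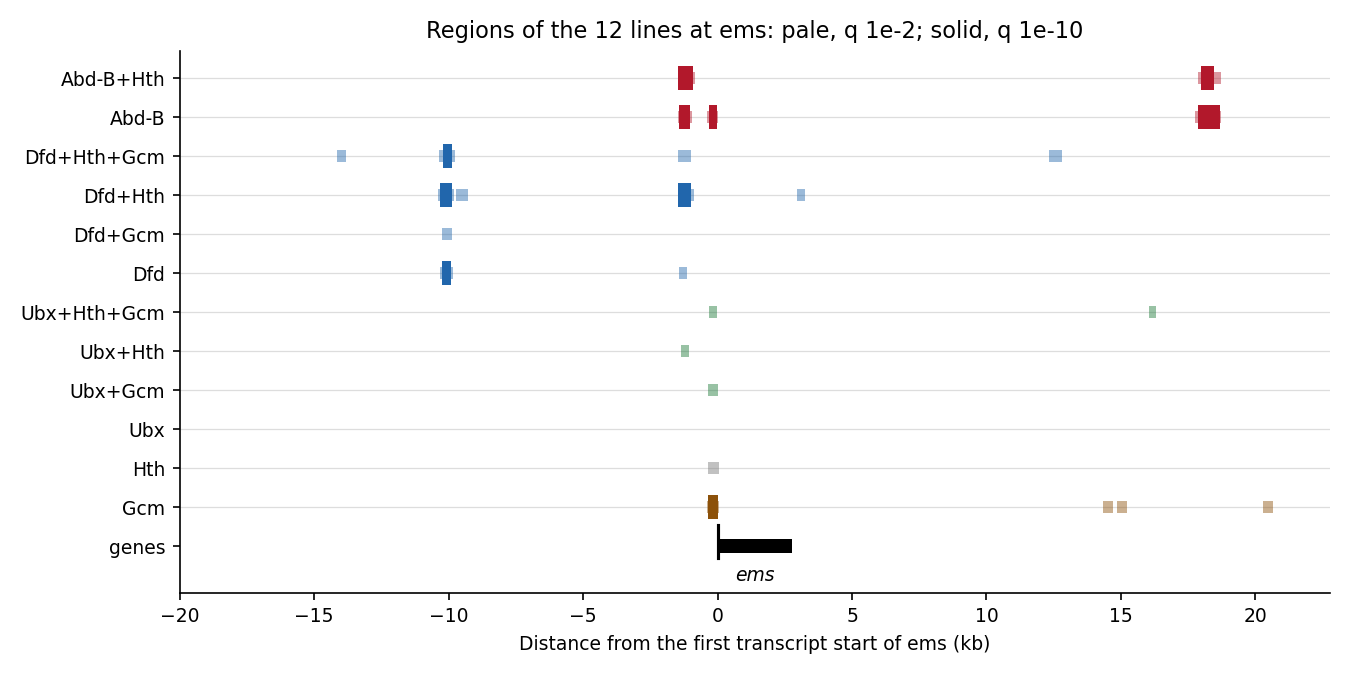
Regions of the 12 lines at ems by distance from its transcript start in kb, with the gene body as a black bar. Pale bars are regions at q 1e-2 and solid bars at q 1e-10. The Abd-B lines alone bind 18243 bp downstream, the 4 Dfd lines alone about 10080 bp upstream, and Ubx has no region.

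Overlap with the cofactors alone was read against all regions of each line. Of the Abd-B+Hth regions, 9 of 15 at ct and none of 2 at ems overlapped a region of Hth alone, against 51.3% of all its regions, and 6 and none overlapped Gcm alone, against 29.3%. Of the Abd-B regions, 11 of 21 at ct and 1 of 3 at ems overlapped Hth, against 52.6%, and 7 and 1 overlapped Gcm, against 30.8%. The ct counts of both lines were near these shares. At ct, 12 of 12 regions of Dfd+Hth overlapped Hth, against 60.1% of all its regions, and 17 of 19 of Dfd, against 62%. For Dfd+Gcm these were 15 of 17, against 63.3%, and for Dfd+Hth+Gcm 12 of 14, against 60.9%. Of these ct regions, 4 of Dfd+Hth, 10 of Dfd, 7 of Dfd+Gcm and 5 of Dfd+Hth+Gcm were pieces of the site over CHES-1-like. Each of these pieces overlapped Hth, so the overlaps are not separate cases. No region of these Dfd lines at ems overlapped Hth. Of the Ubx lines, 15 of 16 ct regions of Ubx+Hth+Gcm overlapped Hth, against 71.8%, and 11 of 12 of Ubx+Hth, against 87.9%. For Ubx+Gcm these were 12 of 15, against 70.2%, and for Ubx 11 of 12, against 91.2%. The ct regions of the Ubx lines also included pieces of the CHES-1-like site.

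Abd-B had 21 regions at ct, Dfd 19 and Ubx 12, and each Dfd and Ubx region there overlapped an Abd-B region. Many of these overlaps were with the same region, the Abd-B region of 9511 bp over CHES-1-like. It took in the 10 Dfd regions downstream of ct and most of the 7 Ubx regions there, so the overlaps are not separate cases. At ct 13 of 21 Abd-B regions had no overlap with Dfd, and at ems 2 of 3, against 46.4% of all Abd-B regions. None of the 19 Dfd regions at ct and 1 of 2 at ems lacked an Abd-B region, against 16.9% of all Dfd regions. Against Ubx, 14 of 21 Abd-B regions at ct and 3 of 3 at ems had no overlap, while the share was 67.7% over the genome. No Ubx region at ct lacked an Abd-B region, near the 2.12% of all Ubx regions. The 4 intron regions were among the Abd-B regions that both Dfd and Ubx lacked.

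In the other lines with Hth, 1 of 21 Dfd regions over both genes lacked a Dfd+Hth region and 3 of 12 Ubx regions lacked a Ubx+Hth region. With all regions cut to 400 bp about their centres, 9 Dfd regions lacked Dfd+Hth, 4 Ubx regions lacked Ubx+Hth and 8 Abd-B regions lacked Abd-B+Hth. The low Dfd count thus rests on whole regions. Shares over the genome were not computed for cut regions, so these counts do not set ct or ems apart. Dfd+Hth had 2 regions at ct and 2 at ems without Dfd, against 21.6% of its regions, and 1 Dfd region at ct lacked Dfd+Hth, against 19.2%. Ubx+Hth had 3 at ct and 1 at ems without Ubx, against 32.8%, and 3 Ubx regions at ct lacked Ubx+Hth, against 36.9%.

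With Gcm, the Ubx lines gained regions at these genes in shares near those of their whole lists. Ubx+Gcm had 7 of 15 regions at ct and its only region at ems without Ubx, near the 48.4% of all its regions, and 1 of 12 Ubx regions at ct lacked Ubx+Gcm, against 7.09%. Ubx+Hth+Gcm had 6 of 16 regions at ct and 2 of 2 at ems without Ubx+Hth, against 50%, and 1 Ubx+Hth region at each gene lacked it, against 11.5%. Dfd+Gcm had 2 regions at ct without Dfd, against 13.1%, and 1 Dfd region at each gene lacked Dfd+Gcm, against 25.2%. Dfd+Hth+Gcm had 1 region at ct and 2 at ems without Dfd+Hth, against 9.83%, and 1 Dfd+Hth region at ct and 2 at ems lacked it, against 23.5%.

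At q 1e-2 with whole regions, neither line with Hth and Gcm had a ct region without its partner with Gcm alone. Dfd+Hth+Gcm had no region at ct and 3 at ems without Dfd+Gcm, against 27%, and no Dfd+Gcm region at either gene lacked it, against 26.4%. Ubx+Hth+Gcm had no region at ct and 1 at ems without Ubx+Gcm, against 21%, and 2 Ubx+Gcm regions at ct lacked it, against 27.3%. With both lists at q 1e-10, 7 regions of Dfd+Hth+Gcm and 1 of Ubx+Hth+Gcm at ct had no such partner. With regions cut to 400 bp, 4 regions of Dfd+Hth+Gcm and 6 of Ubx+Hth+Gcm over both genes had none. Shares over the genome were not computed under these settings. These comparisons share lines, so that their counts are not independent. Copper or induction time also differed within each of these pairs except Ubx+Hth with Ubx and Ubx+Hth+Gcm with Ubx+Gcm, and there it cannot be told apart from the cofactor.

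**Figure D5:**
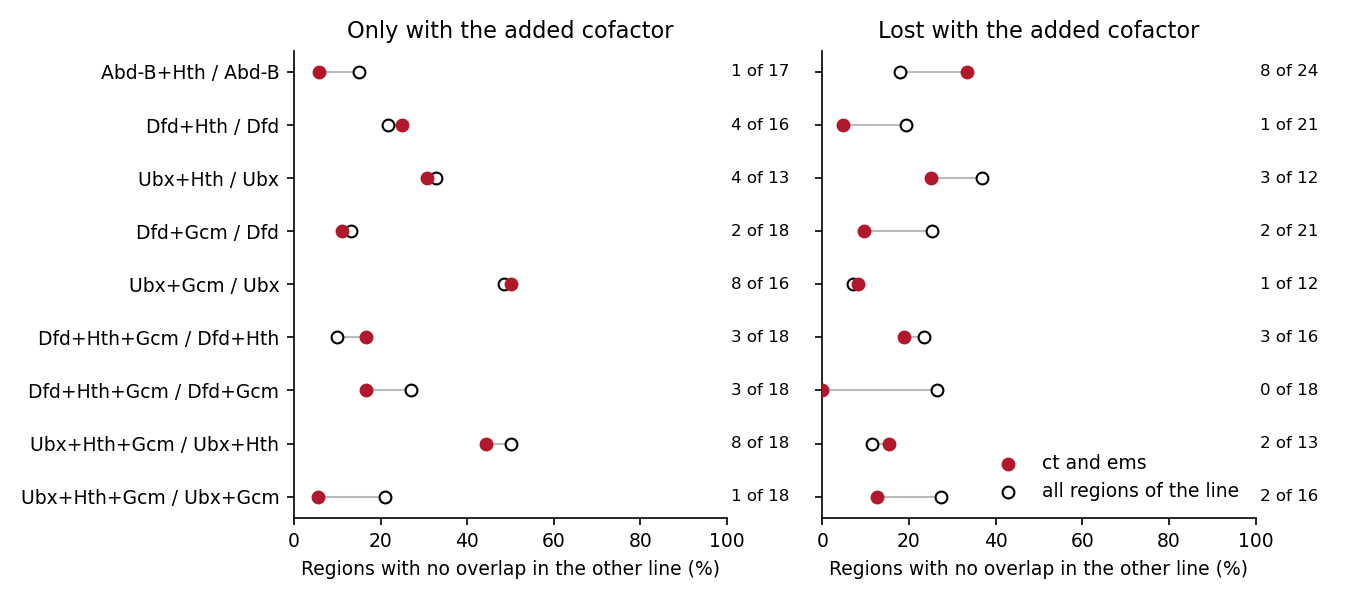
Share of regions, in percent, with no overlap in the other line of each pair, found only with the added cofactor (left) or lost with it (right). Filled points show regions at ct and ems, with their counts at the side, and open points all regions of the line. For Abd-B+Hth and Abd-B, 8 of 24 regions were lost, 33.3% against 17.9%.

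The other genes of the posterior spiracle programme were examined as a list of 17 genes of the cascade below Abd-B, cadherin genes among them. Abd-B+Hth and Abd-B each had a region near 17 of 17 at both thresholds, where all protein-coding genes had shares of 94.3% and 93.2% at q 1e-2 and 88.9% and 89.9% at q 1e-10. Each of the other 10 lines had one near 16 or 17 of the genes at q 1e-2. The median was 5 regions for Abd-B+Hth and 7 for Abd-B, beside 7 and 7 over all protein-coding genes. The genes with the most Abd-B regions were cv-c, with 23 for Abd-B+Hth and 24 for Abd-B, crb, which encodes the apical polarity protein Crumbs, with 10 and 13, and hh, which encodes the ligand Hedgehog, with 15 and 12. By the Abd-B count the fewest were at Cad74A, a cadherin gene, with 2 for either line, and at salr, which encodes a zinc finger protein, with 4 for Abd-B+Hth and 2 for Abd-B. By these counts, which are not per length, ct with 15 and 21 would rank second for Abd-B beside this list, and ems with 2 and 3 near its low end.

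Among the 5 genes most like ct in regions per 1000 regions of each line, over the 12 lines, were Sin3A (Pearson r = 0.948), MtnD (0.937), CG16974 (0.932) and CG3436 (0.919), out of 12465 compared. For ems the 5 genes were CG15890 (0.935), Dnah3 (0.933), Obp56i (0.888), CG31213 (0.887) and bard (0.866), out of 12467. The 12 lines share the Kc167 background and part of their proteins, and the counts at ems are small. Each count was also divided by the length of its line's list, so genes whose counts vary little between lines correlate through this shared divisor. These values therefore only describe the pattern.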

How the data were processed

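Per the labels and the methods, the authors aligned the reads to dm6 (scaffolds excluded, uniquely mapped reads kept) with Bowtie 1.2.2, called peaks per replicate against input with MACS2 2.1.1.20160309, left out those on exons present in the plasmids, and merged overlapping peaks of both replicates. The deposited lists give region starts and ends, and the score the authors deposited is 0 for every region. They hold no signal, summit or list per replicate, so no spread between replicates and no depth per region could be had.

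Here, regions were assigned with the dm6 genome and Ensembl release 115. A region belonged to ct or ems when it touched the gene body or 20 kb on either side. Regions that shared 1 bp were taken as overlapping. Motifs were exact words on both strands. Words in the central 200 bp were counted per region, and over whole regions per kb. Named genes were ct, ems, protein-coding genes in their windows, at most 6 of a spiracle list, and the 5 genes most like each member with at least 12 regions in all, of which 1 is not reported here. Members and lists were chosen with earlier results of these data known. Alternatives were lists at q 1e-10, a required overlap of 50%, regions cut to 400 bp and other flanks. Overlap and motif code was tested on simulated data and against bedtools 2.31.1, in Python 3.11.15 with numpy 2.4.6.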

Additional observations from a re-analysis of the deposited data

How the results depend on the processing

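The lists are merged over replicates, so no replicate could be left out. No paired analysis was possible because the deposited lists carry no replicate numbers. Of 111 recomputed counts, 68 stayed within 1.5 times the reported count. Among the counts of regions without a partner, a genome share was computed for 1 alternative only, Abd-B at q 1e-10 against Abd-B+Hth at q 1e-2. The 8 Abd-B regions lost with Hth became 5 with the counted list at q 1e-10, and were within 1.5 times under the other settings. The 6 sites at ct with Abd-B lines only numbered between 5 and 8 under the settings run, including regions over CHES-1-like left out, a setting chosen after seeing the data.

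The 206 regions became 136 at q 1e-10 and 108 in the gene bodies alone. The 23 sites at ct became 36 with regions cut to 400 bp, which separates broad regions. The 12 sites at ems became 4 at q 1e-10 and 6 with a 10 kb flank, where no Abd-B-only site at ems was left (0), since it lies beyond 10 kb. With whole regions in place of the central 200 bp, regions with a HoxB word numbered 12 in place of 4 for Abd-B+Hth and 18 in place of 9 for Abd-B.

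With both lists at q 1e-10, regions found only with the cofactor became 8 for Dfd+Hth against Dfd, 8 for Dfd+Hth+Gcm against Dfd+Gcm and 5 for Ubx+Hth+Gcm against Ubx+Hth, in place of 4, 3 and 8. Lost regions became 1 for Ubx+Hth against Ubx, 4 for Dfd+Gcm against Dfd, 0 for Ubx+Gcm against Ubx, 1 for Dfd+Hth+Gcm against Dfd+Gcm and 1 for Ubx+Hth+Gcm against Ubx+Hth, in place of 3, 2, 1, 0 and 2.

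With only the counted list at q 1e-10, regions found with the cofactor fell to 0 for Abd-B+Hth against Abd-B, Dfd+Hth against Dfd, Dfd+Hth+Gcm against Dfd+Gcm and Ubx+Hth+Gcm against Ubx+Gcm. They became 1 for Dfd+Gcm against Dfd and for Dfd+Hth+Gcm against Dfd+Hth, and 2 for Ubx+Gcm against Ubx and for Ubx+Hth+Gcm against Ubx+Hth. Lost regions became 0 for Dfd+Hth against Dfd, Ubx+Hth against Ubx, Dfd+Gcm against Dfd, Ubx+Gcm against Ubx, Dfd+Hth+Gcm against Dfd+Hth and Ubx+Hth+Gcm against Ubx+Gcm, and 1 for Ubx+Hth+Gcm against Ubx+Hth.

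With regions cut to 400 bp, lost regions became 9 for Dfd+Hth against Dfd, 6 for Dfd+Gcm against Dfd, 6 for Ubx+Gcm against Ubx, 7 for Dfd+Hth+Gcm against Dfd+Hth, 3 for Dfd+Hth+Gcm against Dfd+Gcm and 4 for Ubx+Hth+Gcm against Ubx+Hth. Regions found only with the cofactor became 9 for Dfd+Hth+Gcm against Dfd+Hth and 6 for Ubx+Hth+Gcm against Ubx+Gcm. For this last pair they became 2 with the 50% overlap and 0 with a 10 kb flank, and Ubx+Hth+Gcm against Ubx+Hth had 5 with a 10 kb flank. Apart from the effect of the narrower regions, windows and lists themselves, the cause was not tested.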
